A study of Mus musculus with 17 samples.

Results

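Transcripts of the aminoacyl-tRNA synthetases were compared among 4 groups of germ cells sorted from mouse testis. The genes were taken by symbol: a single letter for the amino acid followed by ars, with or without a final 1 or 2, plus Eprs, Farsa, Farsb and Tarsl2 or their newer names. The rule found 38 genes among the 24013 rows of the deposited count table. By their known site of action, 19 encode cytosolic enzymes, 17 encode mitochondrial enzymes, of which Lars2 was kept apart, and Gars and Kars each encode both forms. Lars2 held over 1% of the counts in 15 of 17 libraries and was the second most abundant row of the table, whereas the next synthetase, Iars, ranked 261.

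Aminoacyl-tRNA synthetases join each amino acid to its tRNA and so set the reading of the genetic code on the ribosome. Cytosolic synthetases charge tRNAs for nuclear-encoded mRNAs, and the mitochondrial set, made in the cytosol and imported, charges tRNAs for the few proteins encoded by mitochondrial DNA. In mammals several cytosolic synthetases sit together with the scaffold proteins Aimp1, Aimp2 and Eef1e1 in the multisynthetase complex. Of the genes found here, Dars, Eprs, Iars, Lars, Mars1, Qars and Rars belong to that complex, as does the cytosolic form of Kars. Counts of the complex below leave out Kars, which is given apart, and the remaining 12 cytosolic genes were treated as free. Several synthetase genes are known targets of ATF4, the transcription factor of the amino acid stress response.

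All mice were of the Tert-Tomato/+ genotype on a mixed B6/J and B6/N background. P6gonocyte libraries (n = 4) came from gonocytes of neonates at day 6 that were positive for TERT and for an OCT4-GFP reporter, which the genotype label of these mice does not list. KITpos libraries (n = 5) came from adult cells high for TERT and positive for Kit, the receptor of differentiating spermatogonia. GFRA1pos libraries (n = 4) came from adult cells high for TERT, negative for Kit and positive for GFRa1, the co-receptor for the niche factor GDNF. GFRA1neg libraries (n = 4) came from adult cells high for TERT and negative for both Kit and GFRa1. Whether libraries of a group stem from different animals is not in the labels. The spread behind each p-value may therefore be technical. Bulk RNA does not tell fewer cells of a type from less RNA per cell.

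Total counts ran from 6479216 to 8468203 in P6gonocyte, from 5178352 to 8300165 in KITpos, from 10918223 to 11567191 in GFRA1pos and from 9965437 to 12641907 in GFRA1neg. Transcripts of Gfra1, Kit and Pou5f1 followed the labels. Gfra1 averaged 390 scaled CPM (the count over the TMM-scaled library size, in the CPM unit) in GFRA1pos and 22.8 in GFRA1neg, Kit averaged 353 in KITpos and 27.6 in GFRA1neg, and Pou5f1, which encodes OCT4, averaged 19.7 in P6gonocyte and 3.09 in GFRA1pos. P6gonocyte, whose label names neither GFRa1 nor Kit, averaged 145 CPM for Gfra1 and 188 for Kit. Tert averaged 7.21 CPM in P6gonocyte, 7.54 in KITpos, 7.25 in GFRA1pos and 11.3 in GFRA1neg. The labels name no group low for TERT to set beside these. The summed level of 6 germ cell markers was at least 1240 CPM in every library. The summed level of 9 spermatid markers ran from 11.3 to 15.4 CPM in P6gonocyte with Prm1 at 0, from 351 to 1270 in KITpos, from 77 to 1760 in GFRA1pos and from 361 to 1760 in GFRA1neg. The 4 highest libraries were GFRA1pos replicate 2, GFRA1neg replicate 2, KITpos replicate 1 and GFRA1pos replicate 4, and results are given below also without them where that changed a call. The summed level of 11 Sertoli cell markers ran from 60 to 194 CPM in P6gonocyte, from 12.5 to 43.8 in KITpos, from 16.4 to 17.9 in GFRA1pos and from 23.5 to 35.1 in GFRA1neg, with no marker at 0 in all libraries of a group.

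Cytosolic synthetases stood above mitochondrial ones in every group. On the scale of CPM per kilobase of mRNA, the median level of the 19 cytosolic genes averaged 31.5 ± 3.91 in P6gonocyte and 31.9 ± 3.72 in KITpos, with 25.3 ± 0.867 in GFRA1pos and 25.1 ± 1.78 in GFRA1neg (SD; n = 5 for KITpos and 4 elsewhere). The median level of the 16 mitochondrial genes averaged 5.67 ± 0.714 in P6gonocyte and 5.96 ± 0.989 in KITpos, with 7.21 ± 0.841 in GFRA1pos and 7.22 ± 0.265 in GFRA1neg (SD; n = 5 for KITpos and 4 elsewhere). Every library's cytosolic median was above every library's mitochondrial median.

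Among single genes on the same scale, Gars, the glycyl-tRNA synthetase of both compartments, had the highest level after Lars2, at 111 CPM per kilobase over the 4 group means. Mars1, Rars, Farsb and Iars followed at 106, 96.2, 85.1 and 81.9. Mars1 lies against Ddit3 with overlapping gene spans, so reads of the 2 genes may be shared. Other spans overlap too, among them Farsb with Sgpp2, Aars with Ddx19b and Wars with Wdr25, with the same limit. Tarsl2, a second cytosolic threonyl-tRNA synthetase, was the lowest gene of all at 1.01 CPM per kilobase. Yars2, the mitochondrial tyrosyl-tRNA synthetase, was the highest mitochondrial gene other than Lars2 at 19.8. Mars2, Aars2 and Wars2 were the lowest mitochondrial genes at 1.14, 1.28 and 1.63. The rank of Mars2 rests on its mRNA length of 11294 bases, the longest in the family. In scaled CPM, not divided by length, Mars2 had group means from 8.24 to 16.2, above Aars2 and Wars2 in every group.

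The summed level of the 19 cytosolic genes averaged 2770 ± 153 scaled CPM in P6gonocyte and 2330 ± 213 in KITpos, with 2110 ± 131 in GFRA1pos and 2180 ± 199 in GFRA1neg (SD; n = 5 for KITpos and 4 elsewhere). P6gonocyte libraries ran from 2620 to 2980 CPM and GFRA1pos libraries from 1970 to 2260, so that these groups did not overlap. KITpos libraries, at 2110 to 2680 CPM, overlapped GFRA1neg libraries, at 1900 to 2330. The summed level of the 16 mitochondrial genes averaged 456 ± 14.6 CPM in P6gonocyte and 375 ± 40.8 in KITpos, with 398 ± 21.8 in GFRA1pos and 416 ± 32.1 in GFRA1neg (SD; n = 5 for KITpos and 4 elsewhere). Here too P6gonocyte, at 440 to 475 CPM, did not overlap GFRA1pos, at 380 to 430. KITpos, at 329 to 429 CPM, overlapped GFRA1neg, at 369 to 443. By group mean, 10 of the 19 cytosolic genes were highest in P6gonocyte, 5 in KITpos, 1 in GFRA1pos and 3 in GFRA1neg. Of the 16 mitochondrial genes 5 were highest in P6gonocyte, 5 in KITpos, 3 in GFRA1pos and 3 in GFRA1neg. The same counts over all genes are not given here.

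**Figure D1:**
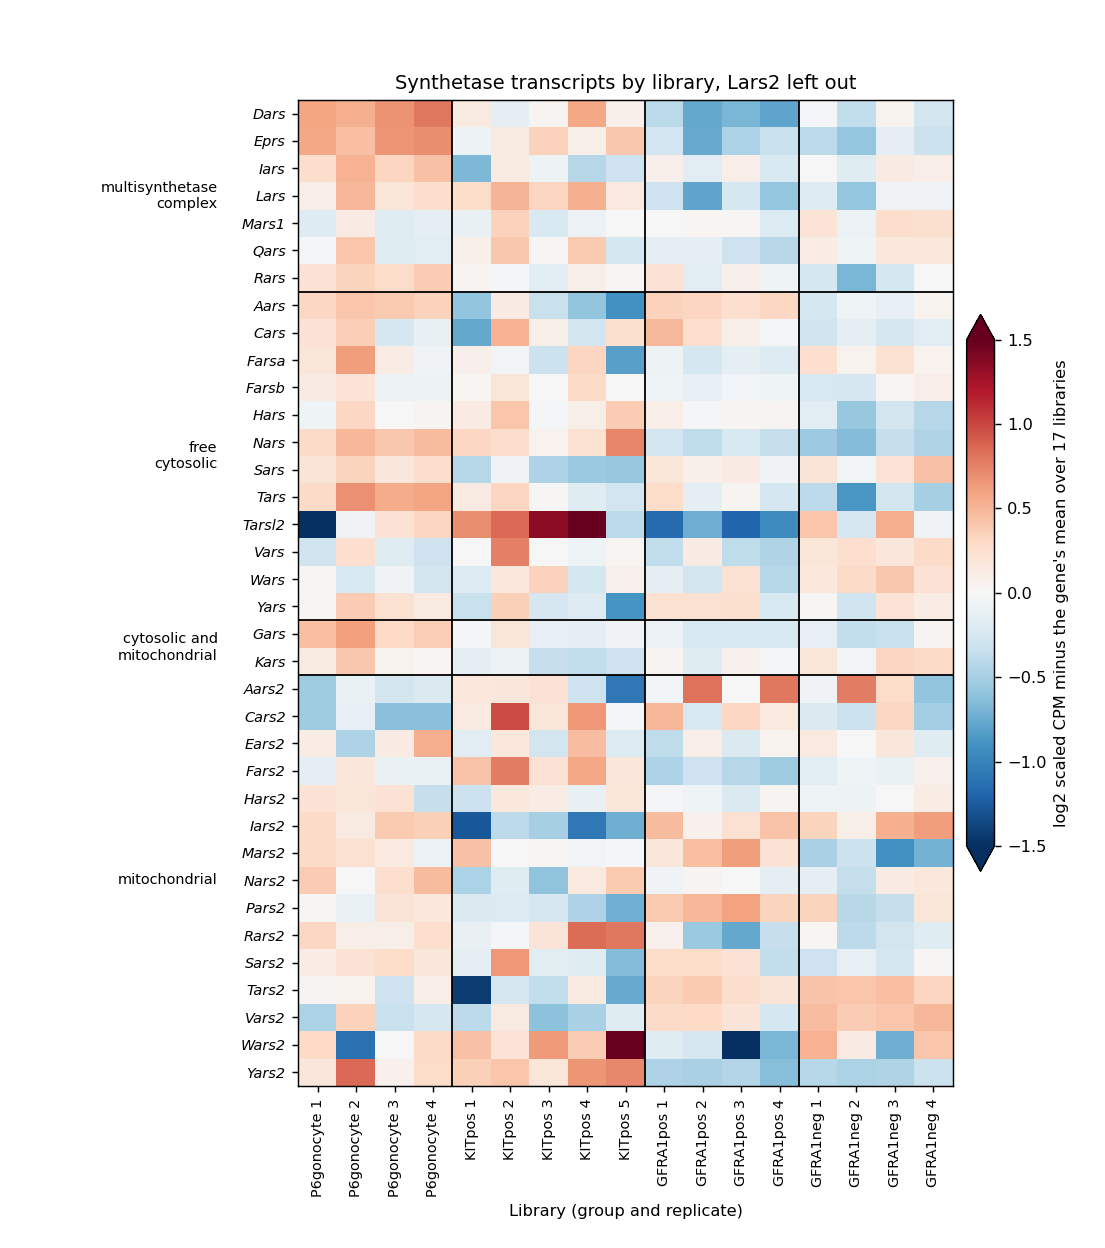
Each row is one of the plotted synthetase genes, without Lars2, and each column a library, coloured by log2 scaled CPM minus that gene's mean over the 17 libraries. Rows are ordered by role. Dars and Eprs are above their means in all 4 P6gonocyte libraries and below them in all 4 GFRA1pos libraries, and Iars2 is below its mean in all 5 KITpos libraries.

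Promoter sequences were matched for 28 of the 38 genes in a RefSeq table of the GRCm38.p6 build, from 250 bases before to 50 after the annotated start. The letters TGATGNAA, the core of the composite element bound by ATF4 with a C/EBP partner, were searched on both strands. They were found in 5 of the 14 matched genes with a cytosolic product, namely Aars, Gars, Iars, Tars and Yars, and in 0 of the 14 mitochondrial genes. The element stood in 4.51% of the 27025 genes in the table. The 5 sequences are shown from 120 bases before to 30 after the start, in the direction of the gene, with the element in capitals on whichever strand it was found.
Aars: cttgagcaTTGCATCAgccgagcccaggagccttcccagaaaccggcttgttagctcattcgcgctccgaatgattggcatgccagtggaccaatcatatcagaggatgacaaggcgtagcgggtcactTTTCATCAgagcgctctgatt
Gars: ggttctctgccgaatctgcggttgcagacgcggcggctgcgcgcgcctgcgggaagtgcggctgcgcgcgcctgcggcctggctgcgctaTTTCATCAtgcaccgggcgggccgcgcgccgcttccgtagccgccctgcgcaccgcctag
Iars: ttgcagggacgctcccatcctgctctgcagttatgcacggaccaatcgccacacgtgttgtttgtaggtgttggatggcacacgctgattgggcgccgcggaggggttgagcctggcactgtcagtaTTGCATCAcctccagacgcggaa
Tars: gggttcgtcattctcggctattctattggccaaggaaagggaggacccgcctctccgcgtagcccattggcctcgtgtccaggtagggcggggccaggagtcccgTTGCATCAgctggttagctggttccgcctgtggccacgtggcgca
Yars: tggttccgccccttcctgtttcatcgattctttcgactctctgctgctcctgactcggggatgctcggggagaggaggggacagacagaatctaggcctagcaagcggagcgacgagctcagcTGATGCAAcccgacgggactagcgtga
The windows are Aars at chr8:111033722-111033871 on the plus strand, Gars at chr6:55037881-55038030 on the plus strand, Iars at chr13:49682010-49682159 on the plus strand, Tars at chr15:11399629-11399778 on the minus strand and Yars at chr4:129189783-129189932 on the plus strand. Aars held 2 copies, whose first bases lie at -112 and 10 from the start, and the copies in Gars, Iars, Tars and Yars begin at -30, 8, -15 and 4. The E-box CACGTG, also searched on both strands and counted whether or not it overlapped the first motif, was found in Aars, Ears2, Farsb, Iars and Tars, and in 8.09% of all genes in the table. Of the 5 genes shown, Gars, Iars and Tars were called higher in P6gonocyte than in GFRA1pos, as were 17.3% of all genes tested. Those calls of Iars and Tars were lost without the 4 libraries highest in spermatid markers. Tars was also called higher in KITpos minus GFRA1neg and in GFRA1pos minus GFRA1neg. Aars and Yars were called in none of the 3 comparisons. A link between the element and these calls was not tested.

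The comparison of neonatal gonocytes with adult GFRA1pos cells gave the largest differences among cytosolic synthetases. Aspartyl-tRNA synthetase Dars and glutamyl-prolyl-tRNA synthetase Eprs, both of the multisynthetase complex, were each over 2-fold higher in P6gonocyte. Lars, Nars, Tars and Iars were also higher, no cytosolic gene was called lower, and Gars was higher. Among mitochondrial genes Yars2 and Fars2 were higher, and Cars2 and Lars2 were lower.

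A gene was called where edgeR's quasi-likelihood test over 15451 genes gave a Benjamini-Hochberg adjusted p under 0.05. By that rule 39.2% of all genes tested were called in this comparison, 17.3% higher and 21.9% lower. Of the 38 synthetases, all of which passed the count filter, 10 were called higher and 2 lower, so 31.6% were called, below the share over all genes. Called higher were 6 of 19 cytosolic genes (31.6%) and 3 of 16 mitochondrial genes (18.8%). The median log2 fold change was 0.28 over the cytosolic genes and 0.11 over the mitochondrial genes, with -0.05 over all genes tested. In all, 17 of 19 cytosolic genes had a positive log2 fold change, as did 7310 of the 15451 genes tested. Within the cytosolic set, 4 of 7 genes of the multisynthetase complex were called higher, with a median of 0.44, and 2 of 12 free genes, with a median of 0.13. Kars, left out of these 7, was not called.

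Dars had 139, 133, 146 and 159 scaled CPM in P6gonocyte, against 69.2, 54.0, 57.1 and 53.0 in GFRA1pos. Every P6gonocyte library was above every GFRA1pos library. The log2 fold change was 1.31 ± 0.15 (SE; adjusted p = 8.9e-06), a 2.48-fold difference. Eprs, the bifunctional enzyme for glutamate and proline, had 440, 402, 463 and 476 CPM in P6gonocyte, against 241, 173, 211 and 233 in GFRA1pos. These groups did not overlap either, and the log2 fold change was 1.06 ± 0.14 (SE; adjusted p = 2.4e-05).

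Lars, the cytosolic leucyl-tRNA synthetase, had 113, 149, 119 and 126 CPM in P6gonocyte, against 85.1, 60.8, 87.7 and 70.5 in GFRA1pos. Its log2 fold change was 0.73 ± 0.15 (SE; adjusted p = 0.00085), with no overlap between the groups. Nars, the asparaginyl-tRNA synthetase, had 105, 122, 114 and 120 CPM in P6gonocyte, against 71.0, 66.0, 73.6 and 67.3 in GFRA1pos. The GFRA1pos libraries lay close together and all below P6gonocyte, and the log2 fold change was 0.73 ± 0.13 (SE; adjusted p = 0.00034). Tars, the threonyl-tRNA synthetase, had 66.8, 88.0, 80.5 and 82.6 CPM in P6gonocyte, against 66.4, 50, 56.1 and 45.6 in GFRA1pos. P6gonocyte replicate 1 lay just above the highest GFRA1pos library. The log2 fold change of Tars was 0.54 ± 0.16 (SE; adjusted p = 0.0125).

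Iars, the isoleucyl-tRNA synthetase of the complex, had 420, 505, 438 and 475 CPM in P6gonocyte, against 370, 314, 375 and 299 in GFRA1pos. The groups did not overlap, and the log2 fold change was 0.44 ± 0.15 (SE; adjusted p = 0.0262). Without any of GFRA1pos replicates 2 or 4 or P6gonocyte replicates 2 or 4 the adjusted p of Iars lay between 0.059 and 0.0831. Of the genes not called, Tarsl2 had the largest difference, with 0.972, 2.65, 3.21 and 3.44 CPM in P6gonocyte against 1.24, 1.66, 1.21 and 1.44 in GFRA1pos (log2 fold change 0.89 ± 0.46 SE; adjusted p = 0.13). Farsa, a subunit of the phenylalanyl-tRNA synthetase, had 49.7, 67.8, 47.3 and 42.2 CPM in P6gonocyte, against 41.4, 36.6, 39.5 and 38.3 in GFRA1pos (log2 fold change 0.41 ± 0.19 SE; adjusted p = 0.0908). Its GFRA1pos libraries were all below the P6gonocyte ones, by a small margin for P6gonocyte replicate 4.

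Gars had 352, 394, 318 and 334 CPM in P6gonocyte, against 242, 219, 220 and 218 in GFRA1pos. All 4 P6gonocyte libraries were above all GFRA1pos libraries, and the log2 fold change was 0.64 ± 0.12 (SE; adjusted p = 0.0004). Kars, the lysyl-tRNA synthetase of both compartments, had 170, 205, 161 and 158 CPM in P6gonocyte, against 160, 137, 162 and 154 in GFRA1pos. The groups overlapped, and Kars was not called (log2 fold change 0.18 ± 0.12 SE; adjusted p = 0.25).

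Among mitochondrial genes, Yars2 had 34.0, 54.3, 31.6 and 36.6 CPM in P6gonocyte, against 21.9, 21.5, 22.2 and 19.3 in GFRA1pos. P6gonocyte replicate 2 was far above the other 3, and all 4 were above GFRA1pos. The log2 fold change of Yars2 was 0.88 ± 0.17 (SE; adjusted p = 0.00054).

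Fars2, the mitochondrial phenylalanyl-tRNA synthetase, had 31.2, 38.5, 32.0 and 31.9 CPM in P6gonocyte, against 24.8, 27.5, 25.5 and 23.6 in GFRA1pos (log2 fold change 0.40 ± 0.14 SE; adjusted p = 0.0332). There was no overlap, but the adjusted p lay between 0.0506 and 0.102 without any of GFRA1pos replicates 1, 3 or 4 or P6gonocyte replicates 2 or 3. Cars2, the mitochondrial cysteinyl-tRNA synthetase, had 9.03, 12, 8.49 and 8.52 CPM in P6gonocyte, against 18.5, 11.1, 16.2 and 14.5 in GFRA1pos (log2 fold change -0.67 ± 0.25 SE; adjusted p = 0.0437). P6gonocyte replicate 2 overlapped GFRA1pos replicate 2. The adjusted p of Cars2 lay between 0.0527 and 0.12 without any of GFRA1pos replicates 1, 3 or 4, GFRA1neg replicate 1 or P6gonocyte replicates 1, 3 or 4.

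The largest mitochondrial difference not called was in Aars2, the alanyl-tRNA synthetase, with 2.78, 3.73, 3.31 and 3.44 CPM in P6gonocyte against 3.90, 7.03, 4.03 and 6.92 in GFRA1pos (log2 fold change -0.72 ± 0.35 SE; adjusted p = 0.114). Wars2, for tryptophan, had 8.05, 3.01, 6.52 and 7.97 CPM in P6gonocyte against 5.77, 5.47, 1.81 and 4.05 in GFRA1pos (log2 fold change 0.57 ± 0.40 SE; adjusted p = 0.266). The Aars2 groups did not overlap, and the Wars2 groups did.

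Without the 4 libraries highest in spermatid markers, 3971 genes were called in place of 6060. Then 4 cytosolic genes and 1 mitochondrial gene were called higher, and Tars, Iars and Fars2 lost the call at adjusted p = 0.11, 0.129 and 0.0909. This choice leaves 2 GFRA1pos libraries. Sertoli cell markers were also higher in P6gonocyte than in GFRA1pos (60 to 194 against 16.4 to 17.9 CPM), and their part in these results was not tested.

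**Figure D2:**
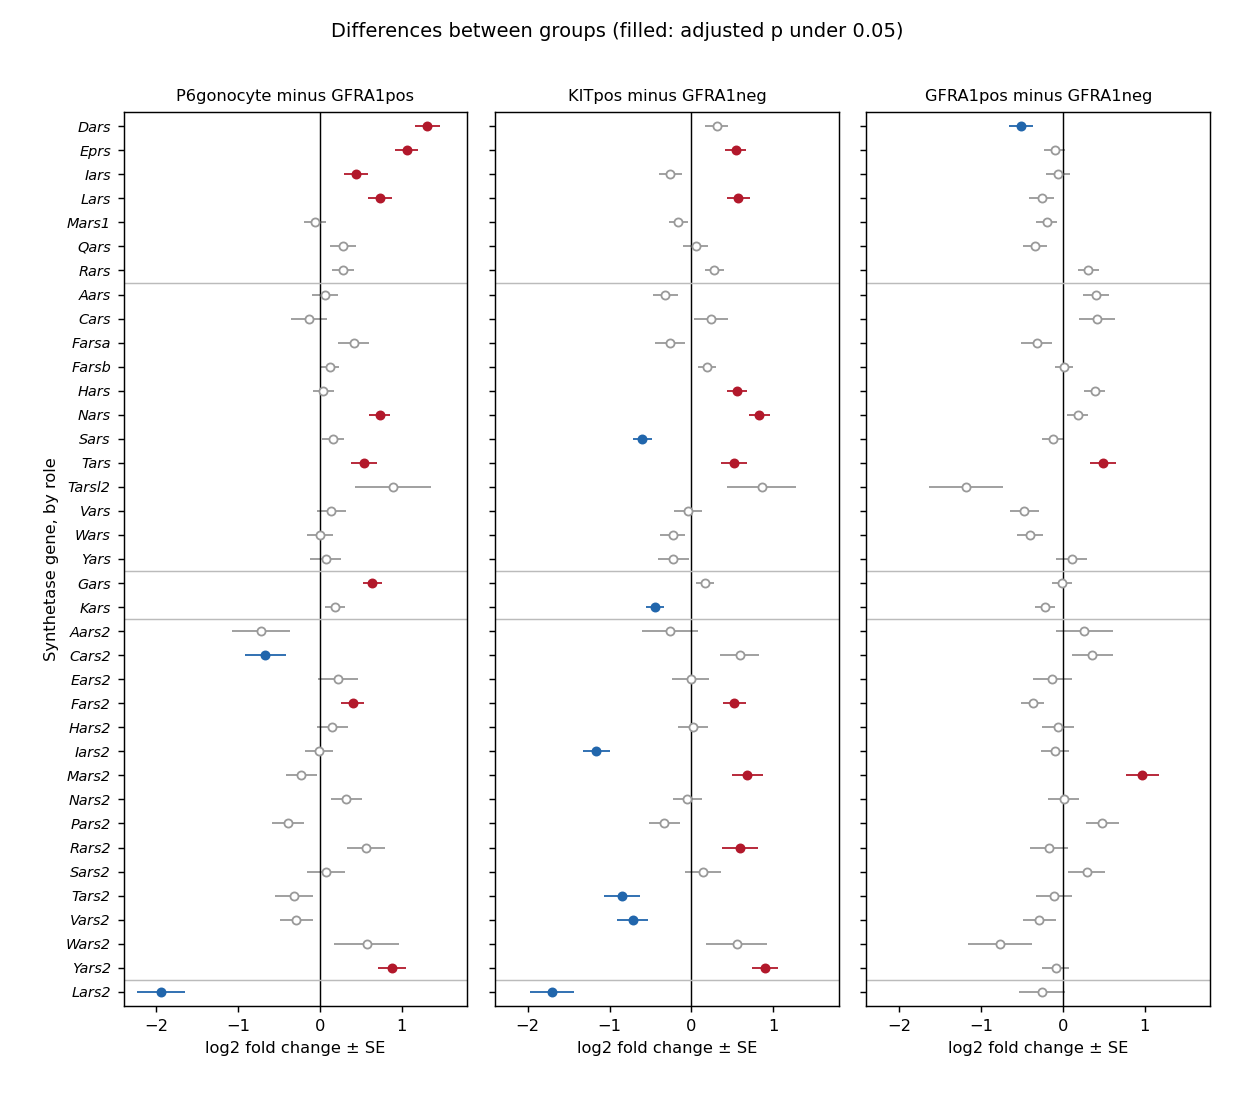
Log2 fold changes with standard errors for 37 genes in each comparison, with rows by role and filled points for genes called. In P6gonocyte minus GFRA1pos, 17 of 19 cytosolic genes lie right of 0, and Lars2 lies farthest left in that comparison and in KITpos minus GFRA1neg.

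The comparison of Kit-positive cells with GFRA1neg cells showed changes in both directions. Nars, Hars, Lars, Eprs and Tars were higher in KITpos and Sars was lower among cytosolic genes. Mitochondrial genes split, with Yars2, Mars2, Rars2 and Fars2 higher and Iars2, Tars2 and Vars2 lower. Kars and Lars2 were lower. The summed level of 9 Leydig cell markers ran from 23.6 to 106 CPM in KITpos and from 11.1 to 28.4 CPM in GFRA1neg, and its part in these results was not tested.

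Over all genes tested, 45.1% were called, 22.1% higher and 23% lower. Of the 38 synthetases, 9 were called higher and 6 lower, 39.5% in all, near the share over all genes. In the cytosolic set 5 of 19 were called higher and 1 lower, with a median log2 fold change of 0.19. In the mitochondrial set 4 of 16 were called higher and 3 lower, with a median of 0.00, and the median over all genes tested was 0.03. Of the 7 complex genes other than Kars, 2 were called, both higher, while Kars was called lower. Of the free cytosolic genes 3 of 12 were called higher and 1 lower.

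Nars had 107, 104, 89.2, 101 and 143 CPM in KITpos, against 59.3, 54.8, 67.9 and 63.3 in GFRA1neg. Every KITpos library was above every GFRA1neg library, KITpos replicate 5 most of all. The log2 fold change was 0.83 ± 0.13 (SE; adjusted p = 2.5e-05). Hars, the cytosolic histidyl-tRNA synthetase, had 65.1, 80.1, 59.3, 64.0 and 78.1 CPM in KITpos, against 53.8, 40.5, 49.5 and 44.7 in GFRA1neg. The groups did not overlap, and the log2 fold change was 0.56 ± 0.12 (SE; adjusted p = 0.0012). The spans of Hars and Hars2, its mitochondrial counterpart, overlap, and reads of the 2 genes may be shared.

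Eprs had 278, 321, 373, 311 and 389 CPM in KITpos, against 223, 196, 264 and 235 in GFRA1neg. KITpos replicate 1 lay closest to GFRA1neg, without overlap, and the log2 fold change was 0.54 ± 0.13 (SE; adjusted p = 0.0019). Lars had 127, 150, 131, 152 and 116 CPM in KITpos, against 92.2, 70.2, 101 and 101 in GFRA1neg. Its groups did not overlap, and the log2 fold change was 0.57 ± 0.14 (SE; adjusted p = 0.0026). Tars had 59.9, 68.5, 55.6, 48.3 and 44.7 CPM in KITpos, against 41.6, 29.9, 45.2 and 38.6 in GFRA1neg. KITpos replicate 5 lay below the highest GFRA1neg library, and the log2 fold change was 0.52 ± 0.16 (SE; adjusted p = 0.0108). Without the 4 libraries highest in spermatid markers the adjusted p of Tars was 0.0594.

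Sars, the cytosolic seryl-tRNA synthetase, went the other way, with 50.5, 65.5, 49.1, 45.9 and 45.6 CPM in KITpos against 77.3, 65.6, 78.0 and 91.5 in GFRA1neg. KITpos replicate 2 came level with the lowest GFRA1neg library. The log2 fold change was -0.60 ± 0.12 (SE; adjusted p = 0.00055). Without KITpos replicate 2, 3 cytosolic genes were called lower in place of 1, Aars among them (adjusted p = 0.00148 by edgeR). With all libraries Aars, the alanyl-tRNA synthetase, had 90.6, 149, 108, 90.4 and 72.9 CPM in KITpos against 114, 131, 125 and 142 in GFRA1neg (log2 fold change -0.32 ± 0.15 SE; adjusted p = 0.0845).

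Dars, the gene with the largest difference in P6gonocyte other than Lars2, was not called here, with 101, 83.6, 94.4, 137 and 97.0 CPM in KITpos against 89.7, 70.9, 95.2 and 76.0 in GFRA1neg (log2 fold change 0.31 ± 0.14 SE; adjusted p = 0.0839). Tarsl2 again had the largest difference not called, with 4.48, 4.99, 7, 10.2 and 2.08 CPM in KITpos against 3.67, 2.32, 4.04 and 2.67 in GFRA1neg (log2 fold change 0.86 ± 0.42 SE; adjusted p = 0.102). KITpos replicate 5 was the lowest of the 9 libraries for Tarsl2.

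Iars2, the mitochondrial isoleucyl-tRNA synthetase, had the largest fall among synthetases other than Lars2. It had 35.1, 64.7, 59.8, 40.4 and 51.1 CPM in KITpos, against 107, 90, 122 and 131 in GFRA1neg. The groups lay far apart, and the log2 fold change was -1.16 ± 0.16 (SE; adjusted p = 1.1e-05), a 2.24-fold difference. Iars2 averaged 104 ± 7.85 CPM in P6gonocyte (SD, n = 4) and 105 ± 13.5 in GFRA1pos (SD, n = 4). Its gene span overlaps Rab3gap2, so the reads of the 2 genes may be shared.

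Tars2, for threonine, had 6.86, 15.5, 14.3, 20.3 and 10.9 CPM in KITpos, against 24.8, 24.6, 25.2 and 23.0 in GFRA1neg. KITpos libraries spread widely but all lay below GFRA1neg, and the log2 fold change was -0.85 ± 0.22 (SE; adjusted p = 0.0034). Vars2, for valine, had 16.9, 24.4, 14.5, 15.9 and 19.7 CPM in KITpos, against 30.7, 28.9, 29.7 and 31.4 in GFRA1neg. There was no overlap, and the log2 fold change was -0.72 ± 0.19 (SE; adjusted p = 0.0042).

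Yars2 had 38.6, 40.1, 34.2, 47.8 and 49.5 CPM in KITpos, against 22.5, 21.7, 22.0 and 24.2 in GFRA1neg. All 5 KITpos libraries were above GFRA1neg, and the log2 fold change was 0.90 ± 0.16 (SE; adjusted p = 0.00015). Mars2, for methionine, had 16.8, 12.4, 12.6, 12.1 and 12.3 CPM in KITpos, against 8.84, 9.92, 6.59 and 7.60 in GFRA1neg. The groups did not overlap, and the log2 fold change was 0.68 ± 0.19 (SE; adjusted p = 0.0061). Fars2 had 46.1, 58.2, 39.9, 51.3 and 38.5 CPM in KITpos, against 30.5, 32.8, 31.9 and 35.7 in GFRA1neg. KITpos was above GFRA1neg throughout, and the log2 fold change was 0.52 ± 0.14 (SE; adjusted p = 0.004).

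Rars2, the mitochondrial arginyl-tRNA synthetase, had 19.2, 20.5, 23.7, 37.2 and 36.0 CPM in KITpos, against 21.2, 15.8, 17.2 and 18.4 in GFRA1neg. KITpos replicates 4 and 5 carried the difference and replicates 1 and 2 lay within or near the GFRA1neg range. The log2 fold change was 0.59 ± 0.22 (SE; adjusted p = 0.0321), and the adjusted p lay between 0.0615 and 0.0963 without any of KITpos replicates 4 or 5 or GFRA1neg replicates 2, 3 or 4. The span of Rars2 overlaps that of Orc3. Cars2, just short of the threshold, had 14.4, 25.9, 14.9, 20.6 and 13.0 CPM in KITpos against 11.3, 10.5, 16.3 and 9.18 in GFRA1neg (log2 fold change 0.59 ± 0.24 SE; adjusted p = 0.051), and Wars2 had 8.82, 7.54, 10.2, 8.53 and 18.5 CPM in KITpos against 9.41, 7.12, 3.93 and 8.69 in GFRA1neg (log2 fold change 0.55 ± 0.37 SE; adjusted p = 0.246).

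Kars had 140, 148, 122, 120 and 125 CPM in KITpos, against 176, 151, 195 and 189 in GFRA1neg. The KITpos libraries all lay below GFRA1neg, KITpos replicate 2 by little, and the log2 fold change was -0.44 ± 0.11 (SE; adjusted p = 0.0031). Gars had 255, 293, 237, 234 and 248 CPM in KITpos against 237, 200, 204 and 265 in GFRA1neg, overlapped and was not called (log2 fold change 0.16 ± 0.11 SE; adjusted p = 0.248).

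P6gonocyte minus GFRA1pos and KITpos minus GFRA1neg share no library. Both come from the same fit over 17 libraries, with a shared estimate of the spread, so their calls are not independent. Over all genes tested, 17.3% were called higher in P6gonocyte minus GFRA1pos and 22.1% in KITpos minus GFRA1neg. Of the 10 synthetases called higher in P6gonocyte and the 9 called higher in KITpos, Eprs, Fars2, Lars, Nars, Tars and Yars2 were in both. Lars2 was called lower in both, and 0 genes were called in opposite directions. The share of all genes called higher in both is not given here, and whether this overlap exceeds that of other genes was not tested. Total counts were at most 8468203 in P6gonocyte and 8300165 in KITpos, and at least 10918223 in GFRA1pos and 9965437 in GFRA1neg. The part of this depth difference in the shared calls was not tested.

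**Figure D3:**
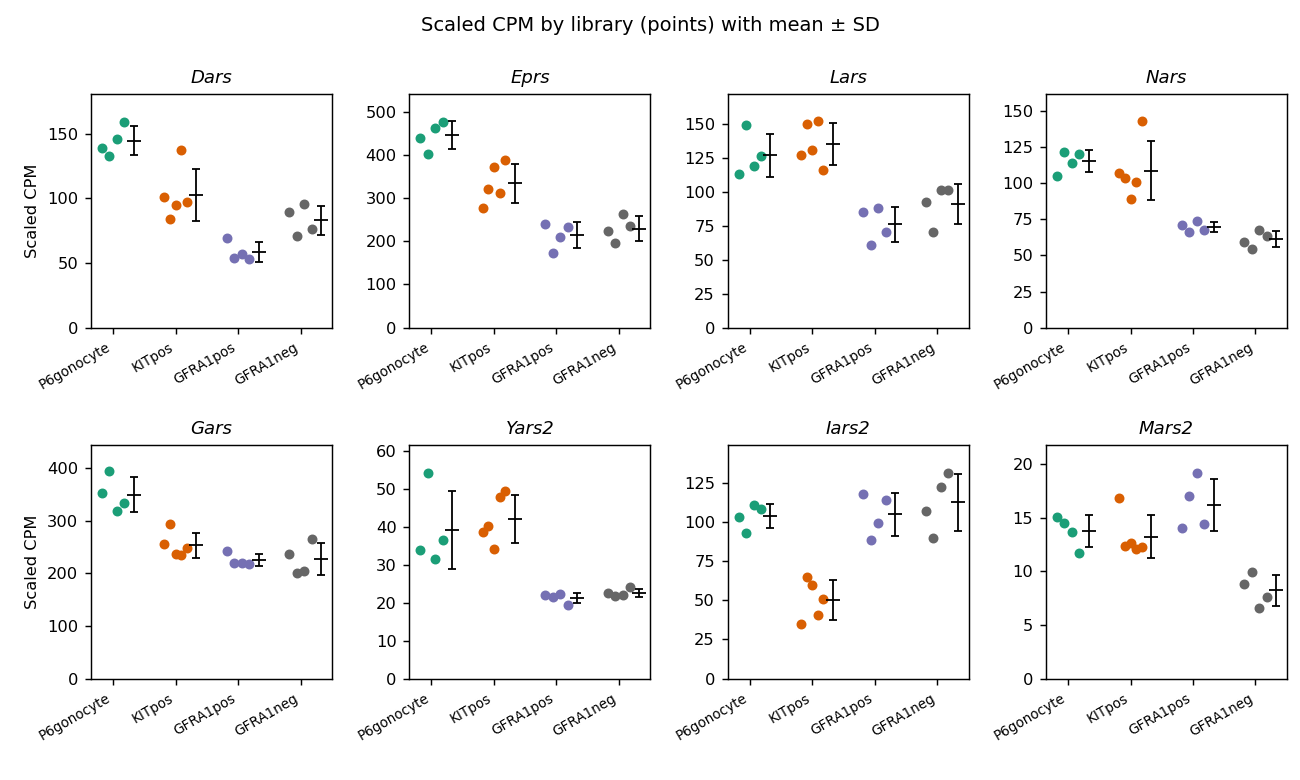
Scaled CPM of 8 synthetases in each library (points) with the group mean ± SD (bars, n = 4, and 5 for KITpos). Eprs, Lars, Nars and Yars2 are higher in P6gonocyte and KITpos than in the GFRA1pos and GFRA1neg groups, Gars is highest in P6gonocyte, Iars2 is low in KITpos and Mars2 is low in GFRA1neg.

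GFRA1pos and GFRA1neg cells, both Kit-negative, had the fewest synthetase calls of the 3 comparisons. Mars2 was 1.96-fold higher in GFRA1pos, Tars was 1.41-fold higher and Dars 1.42-fold lower, both with calls that several alternatives ended. Without the 4 libraries highest in spermatid markers, 0 cytosolic genes and 1 mitochondrial gene were called. With all 17 libraries and 1 mean per group in edgeR, no other synthetase passed the threshold. Some alternatives that kept every library did call others, among them Hars under DESeq2 and Vars with the replicate block.

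Over all genes tested 14.1% were called, 7.3% higher and 6.84% lower, and of the 38 synthetases 2 were called higher and 1 lower, 7.89% in all, below the share over all genes. In the cytosolic set 1 of 19 was called higher and 1 lower, with a median log2 fold change of -0.10. In the mitochondrial set 1 of 16 was called higher and 0 lower, with a median of -0.10, beside -0.04 over all genes tested. In the complex without Kars 6 of 7 genes had a negative log2 fold change, with a median of -0.20, and Kars had -0.22. Of the 15451 genes tested, 8303 had a negative log2 fold change.

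Mars2 had 14.0, 17, 19.2 and 14.4 CPM in GFRA1pos, against 8.84, 9.92, 6.59 and 7.60 in GFRA1neg. Each GFRA1pos library was above each GFRA1neg library, and the log2 fold change was 0.97 ± 0.20 (SE; adjusted p = 0.0022). Mars2 was called under each of the 28 alternatives, at adjusted p between 3.59e-05 and 0.0117. With 13.8 ± 1.51 CPM in P6gonocyte (SD, n = 4) and 13.2 ± 2.0 in KITpos (SD, n = 5), GFRA1neg was the lowest of the 4 groups.

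Dars had 69.2, 54.0, 57.1 and 53.0 CPM in GFRA1pos, against 89.7, 70.9, 95.2 and 76.0 in GFRA1neg. The highest GFRA1pos library was just below the lowest GFRA1neg library, and the log2 fold change was -0.51 ± 0.15 (SE; adjusted p = 0.0257). Without any of GFRA1pos replicates 2, 3 or 4 or GFRA1neg replicates 1 or 3 the adjusted p of Dars lay between 0.065 and 0.104, and without the 4 libraries highest in spermatid markers it was 0.222. Tars had 66.4, 50, 56.1 and 45.6 CPM in GFRA1pos, against 41.6, 29.9, 45.2 and 38.6 in GFRA1neg. The lowest GFRA1pos library was just above the highest GFRA1neg library, and the log2 fold change was 0.49 ± 0.16 (SE; adjusted p = 0.0495). The call of Tars was lost under 16 of 28 alternatives, with adjusted p up to 0.173: among them were leaving out any of GFRA1pos replicates 1, 2 or 3, GFRA1neg replicates 1, 2 or 4, KITpos replicates 1 or 3, or any P6gonocyte library. Hars stood on the other side of the threshold, with 64.4, 58.6, 61.8 and 61.6 CPM in GFRA1pos against 53.8, 40.5, 49.5 and 44.7 in GFRA1neg (log2 fold change 0.39 ± 0.13 SE; adjusted p = 0.0538). Hars was called under 14 of 28 alternatives.

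Of the genes not called, Tarsl2 had 1.24, 1.66, 1.21 and 1.44 CPM in GFRA1pos against 3.67, 2.32, 4.04 and 2.67 in GFRA1neg (log2 fold change -1.18 ± 0.45 SE; adjusted p = 0.0908). The libraries of Tarsl2 did not overlap, at levels of a few CPM. Vars, for valine, had 84.3, 119, 83.7 and 79.6 CPM in GFRA1pos against 124, 130, 123 and 133 in GFRA1neg (log2 fold change -0.47 ± 0.18 SE; adjusted p = 0.0914). Without GFRA1pos replicate 2 or KITpos replicate 2, Vars was called. Aars had 173, 171, 163 and 170 CPM in GFRA1pos against 114, 131, 125 and 142 in GFRA1neg, also without overlap (log2 fold change 0.40 ± 0.16 SE; adjusted p = 0.0979). Pars2, for proline, had 17.7, 19.0, 20.4 and 16.9 CPM in GFRA1pos against 17, 10.1, 10.6 and 15.2 in GFRA1neg, and Wars2 had 5.77, 5.47, 1.81 and 4.05 CPM in GFRA1pos against 9.41, 7.12, 3.93 and 8.69 in GFRA1neg. Their log2 fold changes were 0.48 ± 0.20 (SE; adjusted p = 0.118) for Pars2 and -0.77 ± 0.39 (SE; adjusted p = 0.227) for Wars2.

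In all, 18 of the 38 synthetases were called in none of the 3 comparisons. These were Aars, Cars, Farsa, Farsb, Tarsl2, Vars, Wars, Yars, Mars1, Qars and Rars among cytosolic genes and Aars2, Ears2, Hars2, Nars2, Pars2, Sars2 and Wars2 among mitochondrial genes. A missed threshold does not show that they were equal between groups. Qars and Rars, for glutamine and arginine, had log2 fold changes of 0.28 each in P6gonocyte minus GFRA1pos, of 0.05 and 0.28 in KITpos minus GFRA1neg, and of -0.34 and 0.31 in GFRA1pos minus GFRA1neg.

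The scaffold proteins Aimp1, Aimp2 and Eef1e1 hold the multisynthetase complex together. In P6gonocyte minus GFRA1pos 2 of 3 were called higher, in KITpos minus GFRA1neg 3 of 3, and in GFRA1pos minus GFRA1neg 0 of 3. Over all genes tested, the share called was 17.3% higher and 21.9% lower in P6gonocyte minus GFRA1pos, 22.1% higher and 23% lower in KITpos minus GFRA1neg, and 7.3% higher and 6.84% lower in GFRA1pos minus GFRA1neg. The counts in the pathway lists below stand against these shares. Eef1e1, the smallest scaffold protein, had 43.6, 54.9, 45.0 and 41.8 CPM in P6gonocyte, against 26.7, 22.9, 25.7 and 21.3 in GFRA1pos (log2 fold change 0.94 ± 0.15 SE; adjusted p = 0.00015). It had 89.0, 64.9, 56.2, 72.3 and 66.7 CPM in KITpos, against 37.8, 28.9, 29.1 and 32.8 in GFRA1neg (log2 fold change 1.12 ± 0.15 SE; adjusted p = 4.5e-06). Neither pair of groups overlapped, and KITpos was the highest group.

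Aimp1 had 58.6, 68.7, 54.1 and 54.4 CPM in P6gonocyte, against 40.0, 29.4, 31.5 and 33.7 in GFRA1pos, again without overlap (log2 fold change 0.81 ± 0.15 SE; adjusted p = 0.00053). In KITpos it had 58.2, 55.2, 42.5, 47.4 and 47.8 CPM, against 44.6, 29.3, 38.7 and 43.3 in GFRA1neg, which overlapped (log2 fold change 0.37 ± 0.15 SE; adjusted p = 0.0465). Aimp2 had 85.0, 104, 69.0, 93.6 and 53.4 CPM in KITpos, against 46.4, 46.2, 59.0 and 48.8 in GFRA1neg (log2 fold change 0.70 ± 0.18 SE; adjusted p = 0.003). KITpos replicate 5 fell within the GFRA1neg range. In P6gonocyte Aimp2 had 55.0, 77.6, 52.0 and 59.6 CPM, against 49.2, 43.5, 50 and 37.7 in GFRA1pos, and was not called (log2 fold change 0.44 ± 0.18 SE; adjusted p = 0.0656).

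**Figure D4:**
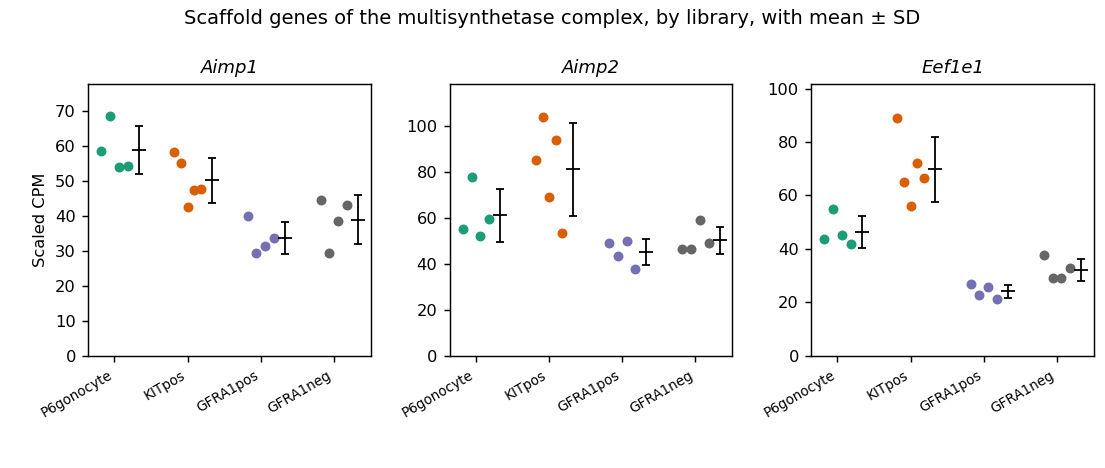
Scaled CPM of the scaffold genes Aimp1, Aimp2 and Eef1e1 in each library (points) with the group mean ± SD (bars, n = 4, and 5 for KITpos). Eef1e1 lies above 40 CPM in each P6gonocyte and KITpos library and below 40 in each GFRA1pos and GFRA1neg library.

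Of 10 accessory and editing genes of tRNA charging, 2 were called higher in P6gonocyte minus GFRA1pos, 1 higher in KITpos minus GFRA1neg and 0 in GFRA1pos minus GFRA1neg, with 0 lower in any. The 2 of 10 called higher in P6gonocyte are near the 17.3% called higher over all genes. Trnt1, which adds the CCA end to tRNAs, averaged 71.7 ± 4.52 CPM in P6gonocyte and 41.1 ± 4.2 in GFRA1pos (SD, n = 4 each; adjusted p = 0.0015 by edgeR). Pstk, a kinase of selenocysteine tRNA, averaged 19.1 ± 2.14 CPM in P6gonocyte and 13.5 ± 2.06 in GFRA1pos (SD, n = 4 each; adjusted p = 0.0292 by edgeR). Dtd1, which removes D-amino acids from tRNAs, averaged 86.2 ± 14.2 CPM in KITpos (SD, n = 5) and 51.8 ± 4.75 in GFRA1neg (SD, n = 4; adjusted p = 0.00034 by edgeR).

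Mammals charge mitochondrial glutamine tRNA through a transamidating complex of Gatb, Gatc and Qrsl1, and Mtfmt formylates the initiator tRNA. Of these 4 genes 2 were called higher in P6gonocyte minus GFRA1pos, 1 higher in KITpos minus GFRA1neg and 0 in GFRA1pos minus GFRA1neg. Gatc averaged 23.3 ± 5.05 CPM in P6gonocyte and 14.5 ± 6.14 in GFRA1pos (SD, n = 4 each; adjusted p = 0.0472 by edgeR), with overlap. It averaged 32.1 ± 8.47 CPM in KITpos (SD, n = 5) and 14.3 ± 1.91 in GFRA1neg (SD, n = 4; adjusted p = 0.00098 by edgeR), without overlap. Qrsl1 averaged 23.6 ± 2.36 CPM in P6gonocyte and 15.9 ± 3.36 in GFRA1pos (SD, n = 4 each; adjusted p = 0.0395 by edgeR).

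Of 15 genes of mitochondrial tRNA maturation, 2 were called higher and 0 lower in P6gonocyte minus GFRA1pos, 4 higher and 2 lower in KITpos minus GFRA1neg, and 0 higher and 2 lower in GFRA1pos minus GFRA1neg. Prorp, the nuclease of mitochondrial RNase P, averaged 59.7 ± 6.75 CPM in KITpos (SD, n = 5) and 130 ± 21.3 in GFRA1neg (SD, n = 4; adjusted p = 1.1e-06 by edgeR). In GFRA1pos Prorp averaged 93.4 ± 11.2 CPM (SD, n = 4), also lower than in GFRA1neg (adjusted p = 0.0222 by edgeR). Trmt10c, another RNase P subunit, was higher with 60.2 ± 5.98 CPM in P6gonocyte and 30.2 ± 8.92 in GFRA1pos (SD, n = 4 each; adjusted p = 0.0036 by edgeR). The 2 subunits of this enzyme thus differed in direction between KITpos and GFRA1neg, where Trmt10c averaged 35.1 ± 9.27 CPM in KITpos (SD, n = 5) and 21.8 ± 7.13 in GFRA1neg (SD, n = 4; adjusted p = 0.0228 by edgeR).

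Of 12 mitochondrial translation factors, 3 were called higher and 0 lower in P6gonocyte minus GFRA1pos, 1 higher and 4 lower in KITpos minus GFRA1neg, and 1 higher and 0 lower in GFRA1pos minus GFRA1neg. Over all genes, 17.3% were called higher in P6gonocyte and 23% lower in KITpos. Tufm, the mitochondrial elongation factor that carries charged tRNA to the ribosome, averaged 89.6 ± 13.3 CPM in P6gonocyte and 65.3 ± 6.55 in GFRA1pos (SD, n = 4 each; adjusted p = 0.0178 by edgeR). Mtif2, the initiation factor, averaged 25.4 ± 6.76 CPM in KITpos (SD, n = 5) and 37.3 ± 2.35 in GFRA1neg (SD, n = 4; adjusted p = 0.0061 by edgeR). Mrpl58, a peptide-releasing factor, averaged 24.2 ± 2.57 CPM in GFRA1pos and 14.3 ± 3.14 in GFRA1neg (SD, n = 4 each; adjusted p = 0.0331 by edgeR).

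Of 6 cytosolic elongation factors, 4 were called higher and 0 lower in P6gonocyte minus GFRA1pos, 1 higher and 1 lower in KITpos minus GFRA1neg, and 0 higher and 1 lower in GFRA1pos minus GFRA1neg. Eef1g averaged 1090 ± 242 CPM in P6gonocyte and 482 ± 52.0 in GFRA1pos (SD, n = 4 each; adjusted p = 2.1e-05 by edgeR). Eef1a1, which delivers charged tRNA to the cytosolic ribosome, averaged 3470 ± 620 CPM in P6gonocyte and 2320 ± 122 in GFRA1pos (SD, n = 4 each; adjusted p = 0.0036 by edgeR). Eef2, the translocase, averaged 1090 ± 205 CPM in KITpos (SD, n = 5) and 2630 ± 346 in GFRA1neg (SD, n = 4; adjusted p = 1.1e-06 by edgeR). Near-identical copies of these elongation factor genes exist elsewhere in the genome, so their counts are uncertain.

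Atf4 itself was not called in any comparison, with 35.7 ± 3.87 CPM in P6gonocyte, 30.1 ± 3.44 in GFRA1pos and 25.6 ± 3.74 in GFRA1neg (SD, n = 4 each), and 28.8 ± 3.74 in KITpos (SD, n = 5). Of 9 genes of the eIF2 kinase and ATF4 pathway, 1 was called higher and 2 lower in P6gonocyte minus GFRA1pos, 1 higher and 4 lower in KITpos minus GFRA1neg, and 1 higher and 0 lower in GFRA1pos minus GFRA1neg. Eif2s1, the subunit of eIF2 that the kinases phosphorylate, averaged 228 ± 19.3 CPM in P6gonocyte and 102 ± 14.6 in GFRA1pos (SD, n = 4 each; adjusted p = 2.1e-05 by edgeR). Ppp1r15a, which directs its dephosphorylation, averaged 25.7 ± 2.75 CPM in P6gonocyte and 43.4 ± 8.19 in GFRA1pos (SD, n = 4 each; adjusted p = 0.0009 by edgeR), and 15.4 ± 1.06 in KITpos (SD, n = 5) against 38.3 ± 5.49 in GFRA1neg (SD, n = 4; adjusted p = 7.8e-07 by edgeR). Eif2ak3, the kinase PERK, averaged 30.9 ± 3.28 CPM in GFRA1pos and 18.2 ± 2.68 in GFRA1neg (SD, n = 4 each; adjusted p = 0.0046 by edgeR).

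Of 28 tested targets of ATF4 other than synthetases, 7 were called higher and 4 lower in P6gonocyte minus GFRA1pos, 4 higher and 13 lower in KITpos minus GFRA1neg, and 5 higher and 5 lower in GFRA1pos minus GFRA1neg. Over all genes, 17.3% were called higher and 21.9% lower in P6gonocyte, 22.1% higher and 23% lower in KITpos, and 7.3% higher and 6.84% lower in GFRA1pos. The median log2 fold change of the targets was -0.01 in P6gonocyte minus GFRA1pos, -0.24 in KITpos minus GFRA1neg and 0.11 in GFRA1pos minus GFRA1neg. Psat1, of serine synthesis, averaged 247 ± 41.0 CPM in P6gonocyte and 147 ± 19.1 in GFRA1pos (SD, n = 4 each; adjusted p = 0.00082 by edgeR). Slc7a5, a leucine transporter, averaged 274 ± 46.8 CPM in KITpos (SD, n = 5) and 601 ± 42.7 in GFRA1neg (SD, n = 4; adjusted p = 7.7e-07 by edgeR). Xpot, which exports tRNAs from the nucleus, averaged 38.9 ± 11.9 CPM in KITpos (SD, n = 5) and 132 ± 11.9 in GFRA1neg (SD, n = 4; adjusted p = 8.3e-08 by edgeR). Sesn2, a stress-induced inhibitor of mTORC1, averaged 78.2 ± 7.33 CPM in GFRA1pos and 30.5 ± 5.65 in GFRA1neg (SD, n = 4 each; adjusted p = 0.00013 by edgeR). Ddit4, another, averaged 3.74 ± 1.05 CPM in GFRA1pos and 26.8 ± 7.38 in GFRA1neg (SD, n = 4 each; adjusted p = 5.1e-06 by edgeR).

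Of the MYC genes, whose products bind CACGTG together with Max, Mycn averaged 46.7 ± 3.83 CPM in P6gonocyte and 30.4 ± 6.18 in GFRA1pos (SD, n = 4 each; adjusted p = 0.0106 by edgeR). It averaged 19.3 ± 4.38 CPM in KITpos (SD, n = 5) and 63.4 ± 8.59 in GFRA1neg (SD, n = 4; adjusted p = 2.2e-07 by edgeR). Max averaged 132 ± 20.1 CPM in P6gonocyte and 306 ± 44.7 in GFRA1pos (SD, n = 4 each; adjusted p = 9.3e-06 by edgeR), and 98.7 ± 8.71 in KITpos (SD, n = 5) against 293 ± 41.3 in GFRA1neg (SD, n = 4; adjusted p = 2.1e-08 by edgeR). Of the list of 4 genes, 2 were called higher and 2 lower in P6gonocyte minus GFRA1pos, 0 higher and 3 lower in KITpos minus GFRA1neg, and 1 higher and 2 lower in GFRA1pos minus GFRA1neg.

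Lars2, the mitochondrial leucyl-tRNA synthetase, was counted far above every other synthetase and was lower in P6gonocyte and KITpos. It had 9430, 13000, 8260 and 10900 scaled CPM in P6gonocyte, against 38000, 42200, 47800 and 31900 in GFRA1pos. These groups lay far apart, and the log2 fold change was -1.94 ± 0.29 (SE; adjusted p = 9.2e-05), a 3.85-fold difference. It had 18100, 10600, 10500, 26100 and 8190 CPM in KITpos, against 50900, 41500, 58100 and 40600 in GFRA1neg. KITpos replicates 4 and 1 were the highest of their group, still below all of GFRA1neg, and the log2 fold change was -1.70 ± 0.27 (SE; adjusted p = 4.3e-05). GFRA1pos and GFRA1neg overlapped (log2 fold change -0.26 ± 0.28 SE; adjusted p = 0.629).

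As a share of library counts, Lars2 took 0.942% to 1.33% in P6gonocyte, 0.913% to 2.21% in KITpos, 3.26% to 4.3% in GFRA1pos and 3.85% to 5.04% in GFRA1neg. All the other 37 synthetases together took 0.4% to 0.414% in P6gonocyte, 0.26% to 0.369% in KITpos, 0.26% to 0.301% in GFRA1pos and 0.259% to 0.305% in GFRA1neg. A single row therefore outweighed the rest of the family in every library.

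The Lars2 mRNA carries past its reading frame a stretch that resembles ribosomal RNA, as is known for the mouse gene, so its counts may hold reads that are not Lars2 mRNA. In GENCODE M21 the 3894-base mRNA, whose reading frame ends at base 2908, shared exact runs of 52 bases with Gm15564 (bases 3278 to 3329) and of 41 bases with AA474408 (bases 3172 to 3212), neither of which is a row of the count table. The most abundant row of the table, to which no symbol could be matched, moved with Lars2 only in part. It took 9.62% to 14.6% of counts in P6gonocyte, 15.2% to 29.3% in KITpos, 23.3% to 29.8% in GFRA1pos and 23.8% to 29.9% in GFRA1neg. Within KITpos, replicates 4 and 1 had the largest shares of both rows and replicate 5 the smallest. At 29.3% and 24.1%, KITpos replicates 4 and 1 lay within the GFRA1pos range for the row without a symbol. Their Lars2 shares, 2.21% and 1.77%, lay below every GFRA1pos library. Per 100 counts of that row there were 9.53 ± 1.17 counts of Lars2 in P6gonocyte and 6.78 ± 0.74 in KITpos, with 14.2 ± 0.37 in GFRA1pos and 16.1 ± 0.574 in GFRA1neg (SD; n = 5 for KITpos and 4 elsewhere). This ratio was thus lower in P6gonocyte and KITpos without overlap with the other groups, and its spread within a group was small. Mir6236, a microRNA entry that was listed among rows of ribosomal RNA, had 3.73 to 5.91 CPM in P6gonocyte, against 12.1 to 186 in GFRA1pos (adjusted p = 0.001 by edgeR). It had 0.346 to 2.22 CPM in KITpos, against 17.9 to 308 in GFRA1neg (adjusted p = 1.2e-05 by edgeR). Mir6236 was thus lower in the same comparisons as Lars2. Within GFRA1pos and GFRA1neg, though, Mir6236 did not follow Lars2, which was highest in replicate 3 of both. From replicate 1 to 4, Mir6236 had 186, 160, 26 and 12.1 CPM in GFRA1pos and 308, 199, 29 and 17.9 in GFRA1neg. In KITpos, replicates 4 and 1 were highest and replicate 5 lowest for both genes. The part of ribosomal reads in the difference in Lars2 was not tested.

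**Figure D5:**
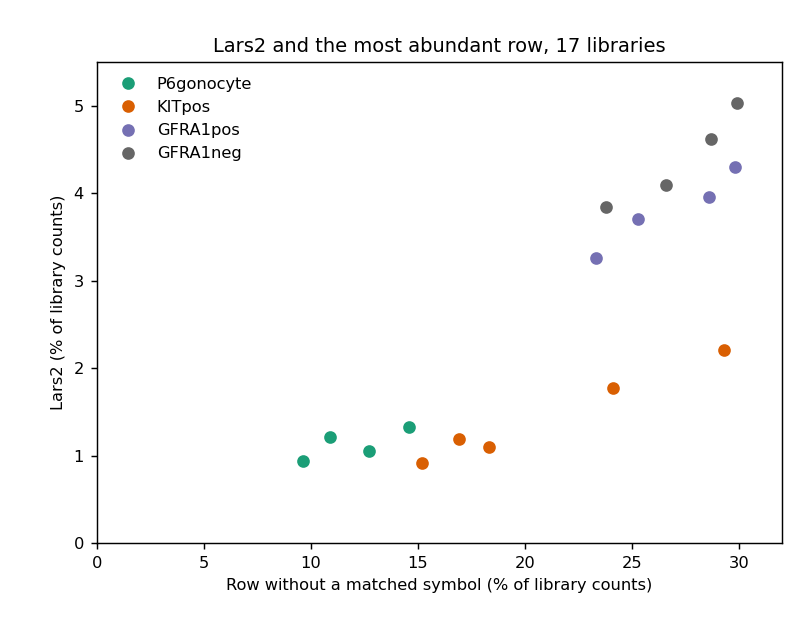
Share of library counts taken by Lars2 (vertical, %) against the share of the most abundant row, which has no matched symbol (horizontal, %), with 1 point per library. P6gonocyte and KITpos libraries lie between 0.913% and 2.21% for Lars2 and GFRA1pos and GFRA1neg libraries between 3.26% and 5.04%.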

How the data were processed

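Sorted cells gave RNA that was amplified (NuGEN Ovation V2) before paired-end TruSeq V2 sequencing, per the labels' protocols. The authors deposited 1 table of unscaled counts, whole numbers for each gene and library. Bowtie, Bowtie2 2.0.0-6, TopHat2 2.0.4, Trim Galore, DESeq and DESeq2 appear in the submitters' processing notes, as does the build mm9. Which program counted reads, on what annotation and whether by strand, is not given in the sources used here. Of 17 count columns, the one read as GFRA1pos replicate 1 is spelled GFP for GFR, which was taken as a slip.

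Symbols came from a RefSeq table of GRCm38.p6 by Entrez number, for 23930 of 24013 rows. The test was edgeR 4.0.16 under R 4.3.3 over all 17 libraries (quasi-likelihood F-test, 1 mean per group, TMM scaling, filterByExpr, Benjamini-Hochberg adjustment, adjusted p under 0.05). It took in 15451 genes, and the common biological coefficient of variation was 0.30. Each SE of an edgeR log2 fold change is a derived value. It is the absolute log2 fold change over the square root of the test's F statistic. Amplified reads carry no molecular identifiers, so a read is not a separate molecule. The fitting step was tested on simulated data. Replicate libraries differed by more than counting error, with a chi-square per degree of freedom from 3.89 to 46.5 over 28 pairs. Levels per kilobase use the longest GENCODE M21 transcript tied to a RefSeq mRNA. Gene spans that overlap were read from the RefSeq table.

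Values in every library are given for Lars2, Gars, Kars, and, in each comparison and class, up to 4 called genes of smallest adjusted p and 2 uncalled genes of largest change, and for Iars, Rars2 and Vars2, called but outside that rule. From each pathway list up to 3 genes of smallest adjusted p could be named. Members and lists were chosen with earlier results of these data known. Alternatives were RLE and upper-quartile scaling, leaving out the 2 most abundant rows, no filter, 1 CPM in 4 libraries, DESeq2 1.42.0, limma 3.58.1 voom, plain or weighted by sample quality, a fit of 2 groups, a block for replicate number, and each library left out. Leaving out the 4 libraries highest in spermatid markers was chosen after the data were seen. Figures were drawn with matplotlib 3.10.9. The values of 1 synthetase are not reported here, though it is part of the counts, medians and sums.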

Additional observations from a re-analysis of the deposited data

Results flagged for a closer look

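Among 96 groups of 4 or 5 libraries (24 synthetases in 4 groups), 9 held a library far from the others of its group by Dixon's test, where chance alone gives about 1 in 20. KITpos replicate 2 stood out for Vars, with 185 CPM against 104 to 111 in the other KITpos libraries, and for Sars, with 65.5 against 45.6 to 50.5. GFRA1pos replicate 2 stood out for Vars too, with 119 CPM against 79.6 to 84.3. P6gonocyte replicate 2 stood out for Fars2, with 38.5 CPM against 31.2 to 32.0, and for Cars2, with 12 against 8.49 to 9.03. Mars2 had 16.8 CPM in KITpos replicate 1, against 12.1 to 12.6 in the others, and Wars2 had 18.5 CPM in KITpos replicate 5, against 7.54 to 10.2. Tars2 had 14.9 CPM in P6gonocyte replicate 3, against 18.9 to 19.7, and Gars had 242 CPM in GFRA1pos replicate 1, against 218 to 220.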

How the results depend on the processing

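Over 28 alternatives, 21 of the 30 called differences in named synthetases kept the call throughout, 9 lost it in at least 1, and 14 of the 45 uncalled ones gained it in at least 1. None turned its direction past the threshold. Lars2 ranged from -2.07 to -1.85 on the log2 scale in P6gonocyte minus GFRA1pos, from -2.01 to -1.55 in KITpos minus GFRA1neg and from -0.35 to -0.11 in GFRA1pos minus GFRA1neg, also with each library left out in turn. Without the 2 most abundant rows Lars2 has no value.

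Genes called in GFRA1pos minus GFRA1neg numbered 2185, but 3476 with sample quality weights, 1268 without the 4 libraries highest in spermatid markers, and 1589 to 2483 with 1 library left out. There, the single cytosolic gene called higher became 2 with RLE or upper-quartile scaling, without the 2 most abundant rows, with no filter, in both limma fits, in the fit of 2 groups and with the replicate block, 4 with DESeq2, 0 with the 1 CPM filter or without the 4 libraries, and 0 to 3 with 1 library left out. The single cytosolic gene called lower became 0 with no filter or without the 4 libraries, 3 with quality weights or the replicate block, 4 in the fit of 2 groups and 0 to 2 with 1 library left out. Mitochondrial genes called higher there numbered 2 in both limma fits in place of 1, and 1 with any library left out, and those lower 1 with quality weights or the replicate block in place of 0.

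In KITpos minus GFRA1neg 6969 genes were called, and 6210 to 7140 with 1 library left out. With 1 left out the cytosolic genes called higher numbered 5 to 7 and lower 1 to 3, and the mitochondrial genes higher 3 to 5 and lower 3. Cytosolic genes called lower were 2 in place of 1 with upper-quartile scaling, without the 2 most abundant rows and with DESeq2.

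In P6gonocyte minus GFRA1pos 6060 genes were called, 3971 without the 4 libraries, and 5051 to 6463 with 1 library left out. With 1 left out the cytosolic genes called higher numbered 5 to 7 and lower 0, and the mitochondrial genes higher 2 to 4 and lower 0 to 1. Mitochondrial genes called higher were 6 with quality weights and 1 without the 4 libraries, in place of 3, and those lower 0 with voom, 3 with quality weights and 2 in the fit of 2 groups, in place of 1. The causes of these moves were not tested.

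The labels give no shared animal or day for equal replicate numbers. For each gene, a library's deviation from its group mean was taken on the log2 CPM scale. Correlations of these deviations between same-numbered libraries were 0.436, 0.49 and 0.293 for replicates 1 to 3 of GFRA1pos and GFRA1neg. Replicate 4 gave 0.065. They ran from -0.232 to -0.036 in KITpos and GFRA1neg, and from -0.017 to 0.077 in P6gonocyte and GFRA1pos. The main fit has no term for replicate number. Whether same-numbered libraries of GFRA1pos and GFRA1neg shared a preparation was not tested. With the replicate number as a block, 6409 genes were called in P6gonocyte minus GFRA1pos, 6858 in KITpos minus GFRA1neg and 2584 in GFRA1pos minus GFRA1neg. Among synthetases given in every library, the block added calls in GFRA1pos minus GFRA1neg of Vars (adjusted p = 0.0105), Aars (adjusted p = 0.0405) and Fars2 (adjusted p = 0.0498), and in KITpos minus GFRA1neg of Tarsl2 (adjusted p = 0.045) and Cars2 (adjusted p = 0.0434), where it ended that of Rars2 (adjusted p = 0.071), all by edgeR. The lowest total count was in KITpos, and Tarsl2, Wars2 and Aars2, at a few CPM, had the fewest counts behind them.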
